A study of Mus musculus with 13 samples.

Results

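The genes described here are 8 enzymes of cholesterol synthesis, Hmgcs1, Mvk, Idi1, Fdps, Fdft1, Sqle, Lss and Dhcr7, chosen by gene symbol from a deposited table of 54532 mouse genes. Each symbol had 1 row. The working label of the set also speaks of uptake, but all 8 encode enzymes of synthesis, so uptake genes are given from a separate list. A filter on low values kept 14421 genes, those with at least 1 FPKM (fragments scaled to gene length and to reads per library) in at least 3 libraries. It kept 7 of the 8 and left out Fdps.

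RNA was taken from inguinal white adipose tissue, a subcutaneous fat depot, of single mice that had fasted for 12 hours. The SF_HPD group (n = 5) had fragmented sleep and a high-protein diet with 12% of calories from fat, 50% from protein and 38% from carbohydrate. The SF_ConD group (n = 5) had fragmented sleep and a normal chow diet. The SC_ConD group (n = 3) had normal sleep and the same chow. Mice were allotted at random with matched weights, and no group had normal sleep with the high-protein diet. For strain, sex, age and the duration of sleep fragmentation, the sources used here give nothing.

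Cholesterol is built from acetyl-CoA through the mevalonate pathway, in which small precursors become isoprenoid units, then squalene, then the sterol rings. SREBP2, a membrane-bound transcription factor held in the endoplasmic reticulum by sterols, raises the transcription of nearly all these enzymes when cell sterols are low. Adipocytes store much free cholesterol, most of it taken up from lipoproteins, and liver is a main organ of synthesis.

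The promoter windows of 4 members are shown because SREBP2 is known to act with NF-Y and Sp1 at short promoter motifs. They come from RefSeq on GRCm38.p6 and run 5′ to 3′ from 250 bases before to 50 bases after RefSeq's gene start, all on the plus strand. Capitals mark an SRE-like core (TCACNCCA) or an NF-Y box (CCAAT), searched on both strands, so that an NF-Y box on the other strand reads ATTGG. The windows are chr13:119690101-119690400 for Hmgcs1, chr5:114444019-114444318 for Mvk, chr13:8885356-8885655 for Idi1 and chr10:76531355-76531654 for Lss.
Hmgcs1: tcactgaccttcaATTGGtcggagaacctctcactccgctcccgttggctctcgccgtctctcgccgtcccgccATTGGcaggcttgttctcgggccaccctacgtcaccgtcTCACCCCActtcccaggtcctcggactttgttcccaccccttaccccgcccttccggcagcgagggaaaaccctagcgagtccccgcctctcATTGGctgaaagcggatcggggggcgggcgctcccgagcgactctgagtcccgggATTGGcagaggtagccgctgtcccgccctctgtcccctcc
Mvk: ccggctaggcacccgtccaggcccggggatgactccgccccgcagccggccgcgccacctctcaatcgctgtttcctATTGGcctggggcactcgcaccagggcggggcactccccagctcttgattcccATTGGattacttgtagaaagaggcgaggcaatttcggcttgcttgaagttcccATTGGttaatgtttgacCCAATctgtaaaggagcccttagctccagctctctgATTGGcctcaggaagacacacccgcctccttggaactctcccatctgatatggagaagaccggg
Idi1: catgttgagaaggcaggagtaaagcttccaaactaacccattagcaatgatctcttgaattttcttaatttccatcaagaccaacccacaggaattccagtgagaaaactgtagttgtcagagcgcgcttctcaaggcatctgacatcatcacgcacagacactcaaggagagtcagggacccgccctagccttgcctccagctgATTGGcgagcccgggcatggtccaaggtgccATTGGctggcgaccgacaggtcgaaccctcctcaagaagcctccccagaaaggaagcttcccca
Lss: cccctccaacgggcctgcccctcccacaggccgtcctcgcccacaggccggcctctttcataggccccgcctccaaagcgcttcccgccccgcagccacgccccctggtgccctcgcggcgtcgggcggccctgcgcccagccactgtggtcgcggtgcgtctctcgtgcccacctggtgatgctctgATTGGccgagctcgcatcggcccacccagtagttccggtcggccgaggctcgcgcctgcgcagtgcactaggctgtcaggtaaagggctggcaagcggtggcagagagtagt

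Hmgcs1 held the SRE-like core TCACCCCA, whose first base is at position -137 from the gene start, and 4 NF-Y boxes. Mvk held 5 NF-Y boxes, Idi1 held 2 and Lss held 1. Of the 8 members, 5 had an entry, Dhcr7 with several windows, 1 of which held 2 NF-Y boxes. The SRE-like core was found in 4.36% and the NF-Y box in 37.4% of 32851 promoter windows of the same length, and both together in 1.67%. The looser core CACNCCA, which lies within every SRE-like core, was in 18.4% of windows, and among these members in Hmgcs1 alone. The Sp1 box GGGCGG, left in lower case, was in 35.7% of windows and at least once in each of the 4 shown. These matches describe letters in a window and were not measured as binding. Dhcr7, Sqle, Fdps and Fdft1 are not shown.

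Libraries held 14815592 to 18303302 recovered reads, and the divisor that the deposited FPKM imply ran from 0.479 to 1.23 times a library's own total. Several libraries stood apart by markers of other cells, before any comparison. In SF_HPD 2 the adipocyte gene Adipoq was at 26.1 FPKM, against 666 to 4231 FPKM in the others, and the 12 adipocyte markers summed to 1491 FPKM, against 7776 to 58821 FPKM. There the 11 mammary and epithelial markers summed to 7919 FPKM, against 3.49 to 1940 FPKM elsewhere, with the keratin gene Krt18, picked after its value was seen, at 5015 FPKM. Of the same list, Epcam, Cdh1 and Krt14 were at 47.2, 34.9 and 4.34 FPKM there, within the range of the other libraries, while Krt8, Krt19, Krt5 and Cldn4 also stood above it. The milk protein genes Csn2, Csn3 and Wap were listed at 0 in SF_HPD 2. The liver gene Alb was at most at 88.3 FPKM in the sleep-fragmented libraries, at 52.2 FPKM in SC_ConD 1, and at 4223 and 1614 FPKM in SC_ConD 2 and 3. The 18 hepatocyte markers other than Cyp2e1, which fat also expresses, summed to 18359 and 7666 FPKM in SC_ConD 2 and 3, against 52.0 to 477 FPKM in the other 11. Of these, Cyp7a1 was listed at 0 in SC_ConD 2 and 3 and was at most at 0.0803 FPKM in any library. Each of the rest was higher in SC_ConD 2 and 3 than elsewhere, though Ttr was also at 139 FPKM in SF_HPD 2, beside 148 FPKM in SC_ConD 3. The B cell gene Cd79a was at 60.7 to 196 FPKM in SF_HPD 4 and 5 and SF_ConD 1, 4 and 5, called lymphoid-rich here, and at most at 4.46 FPKM in the rest. SF_HPD 4 and SC_ConD 3 held 6792 and 1306 FPKM of the muscle gene Acta1.

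Across the 3 groups no member passed the test, so the results are the members' levels and how they were spread over animals. SF_ConD mice averaged less than SC_ConD mice in 8 of the 8 transcripts. SF_HPD mice did so in 7, the exception being Mvk, which averaged most in SF_HPD. Of all genes tested, 52.6% had log2 fold changes below 0 in SF_ConD against SC_ConD and 48.2% in SF_HPD against SC_ConD. The high values lay in few animals. By deposited FPKM, SF_HPD 2 was among the 3 highest libraries for 6 of 8 members, and SC_ConD 2 for 8 of 8. SC_ConD 3 was among them for 4, and SC_ConD 1 for 1. The divisors of SF_HPD 2 and SC_ConD 2 were 0.479 and 0.585 times their own totals. With own totals as divisor SF_HPD 2 left the 3 highest for Lss (1.07 FPKM) and Dhcr7 (1.24 FPKM). SC_ConD 2 left them for Hmgcs1 (20.4 FPKM), Mvk (9.14 FPKM) and Fdft1 (29.3 FPKM). At the low end of the deposited FPKM, SF_ConD 1 and SF_ConD 4 were among the 3 lowest for 5 members each.

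**Figure D1:**
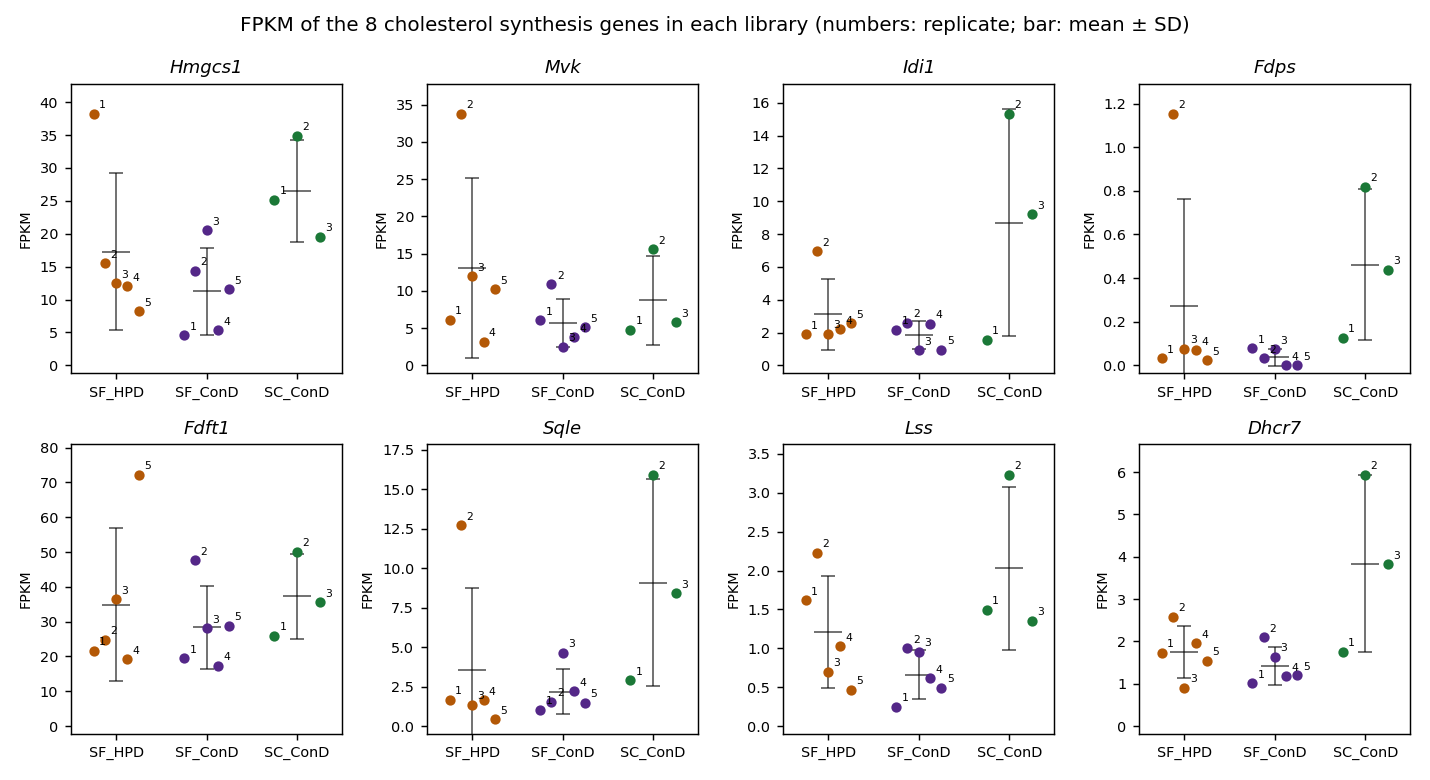
FPKM of the 8 genes in pathway order, with 1 point per library numbered by replicate and the mean with its SD for SF_HPD (n = 5), SF_ConD (n = 5) and SC_ConD (n = 3); an SD bar that would go below 0 is clipped at the axis. SF_HPD 2 stands above the rest of its group in Mvk (33.8 FPKM), Idi1, Fdps and Sqle, and SC_ConD 2 is the highest library in Idi1 (15.3 FPKM), Sqle, Lss and Dhcr7.

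Hmgcs1 (ENSMUSG00000093930, chromosome 13, 119690379 to 119708260 on GRCm38) encodes the cytosolic HMG-CoA synthase, an early enzyme of the mevalonate pathway. It was at 38.2, 15.5, 12.5, 12.1 and 8.19 FPKM in SF_HPD 1 to 5. In SF_ConD 1 to 5 it was at 4.56, 14.4, 20.5, 5.37 and 11.6 FPKM, and in SC_ConD 1 to 3 at 25.2, 34.9 and 19.5 FPKM. SF_HPD 1 was the highest of all 13 libraries, and the SF_ConD and SC_ConD groups overlapped only because SF_ConD 3 stood above SC_ConD 3. The means were 17.3 ± 12.0 FPKM in SF_HPD, 11.3 ± 6.62 FPKM in SF_ConD and 26.5 ± 7.76 FPKM in SC_ConD (SD, n = 5, 5 and 3). A transcript on the other strand, Gm48342, overlaps the gene and was at most at 0.182 FPKM.

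Mvk (ENSMUSG00000041939, chromosome 5, 114444269 to 114460591) encodes mevalonate kinase, which phosphorylates mevalonate. Its values were 6.11, 33.8, 12.0, 3.21 and 10.3 FPKM in SF_HPD 1 to 5. They were 6.08, 10.9, 2.52, 3.77 and 5.14 FPKM in SF_ConD 1 to 5, and 4.81, 15.6 and 5.82 FPKM in SC_ConD 1 to 3. SF_HPD 2 alone stood above SC_ConD 2, and the 3 groups overlapped. Mvk averaged 13.1 ± 12.1 FPKM in SF_HPD, 5.68 ± 3.21 FPKM in SF_ConD and 8.75 ± 5.97 FPKM in SC_ConD (SD, n = 5, 5 and 3).

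Idi1 (ENSMUSG00000058258, chromosome 13, 8885501 to 8892451) encodes isopentenyl-diphosphate isomerase, which interconverts the isoprenoid units. It was at 1.90, 6.95, 1.92, 2.20 and 2.56 FPKM in SF_HPD 1 to 5. SF_ConD 1 to 5 had 2.17, 2.60, 0.910, 2.54 and 0.943 FPKM, and SC_ConD 1 to 3 had 1.56, 15.3 and 9.21 FPKM. SC_ConD 2 and 3 stood above every sleep-fragmented library, while SC_ConD 1 lay within the SF_ConD values and below every SF_HPD one. Of the 50-base stretches of its transcripts, 28.6% occur in transcripts of 5 other gene models, so its count is uncertain.

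Fdps (ENSMUSG00000059743, chromosome 3, 89093588 to 89101959) encodes farnesyl diphosphate synthase, at the branch point to sterols and protein prenylation. Its values were 0.0334, 1.15, 0.0757, 0.0689 and 0.0240 FPKM in SF_HPD 1 to 5. In SF_ConD 1 to 5 it was at 0.0785, 0.0318 and 0.0745 FPKM and then listed at 0 in SF_ConD 4 and 5, and in SC_ConD 1 to 3 it was at 0.127, 0.819 and 0.439 FPKM. All SC_ConD libraries stood above all SF_ConD ones, but on 9, 32 and 21 reads against at most 6. A count of 0 allows up to 3 reads, or 0.0353 FPKM in SF_ConD 4 and 0.0620 FPKM in SF_ConD 5. Of its 50-base stretches, 64.1% are shared with 8 other gene models, among them Gm43738, which overlaps it on the same strand over 7512 bases and was listed at 0 in every library. The level of Fdps is therefore uncertain, and it was not tested with the others. With no filter beyond an FPKM above 0 the difference SF_ConD against SC_ConD was -0.47 (SE 0.24, limma adjusted p = 0.923).

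Fdft1 (ENSMUSG00000021273, chromosome 14, 63145150 to 63179578) encodes squalene synthase, the first enzyme committed to sterols. It was at 21.6, 24.8, 36.4, 19.2 and 72.2 FPKM in SF_HPD 1 to 5. The SF_ConD values were 19.6, 47.7, 28.2, 17.3 and 28.8 FPKM, and the SC_ConD values 26.0, 50.1 and 35.6 FPKM. All 3 groups overlapped, and its highest over lowest value, 4.17, was the smallest among the 7 members tested. Fdft1 overlaps Ctsb on the other strand over 774 bases and shares 30.7% of its 50-base stretches with Ctsb and Gm6781. Ctsb was at 29.0 to 242 FPKM and the sources used here give no strand setting, so reads of the 2 genes cannot be told apart there.

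Sqle (ENSMUSG00000022351, chromosome 15, 59315077 to 59331192) encodes squalene epoxidase, which oxidises squalene before the sterol rings close. It was at 1.66, 12.7, 1.37, 1.64 and 0.455 FPKM in SF_HPD 1 to 5. In SF_ConD 1 to 5 it was at 1.05, 1.55, 4.65, 2.22 and 1.47 FPKM, and in SC_ConD 1 to 3 at 2.89, 15.9 and 8.41 FPKM. Among the 7 tested members its values spread most, 35.0-fold between SF_HPD 5, the lowest, and SC_ConD 2, the highest. Without SF_HPD 2 the SF_HPD values lay below every SC_ConD value, and SF_ConD 3 alone among its group stood above SC_ConD 1.

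Lss (ENSMUSG00000033105, chromosome 10, 76531588 to 76557138) encodes lanosterol synthase, which closes the sterol rings. SF_HPD 1 to 5 had 1.62, 2.23, 0.698, 1.03 and 0.468 FPKM. SF_ConD 1 to 5 had 0.251, 0.99997, 0.954, 0.614 and 0.492 FPKM, and SC_ConD 1 to 3 had 1.496, 3.23 and 1.35 FPKM. Lss was the one tested member whose SF_ConD and SC_ConD values did not overlap, at means of 0.662 ± 0.316 FPKM in SF_ConD and 2.03 ± 1.05 FPKM in SC_ConD (SD, n = 5 and 3). An antisense transcript, 4930483K19Rik, overlaps it and was at 0 to 1.22 FPKM, so without a known strand setting the level of Lss is uncertain too.

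Dhcr7 (ENSMUSG00000058454, chromosome 7, 143823145 to 143848410) encodes the reductase that turns 7-dehydrocholesterol into cholesterol. It was at 1.74, 2.58, 0.912, 1.96 and 1.54 FPKM in SF_HPD 1 to 5. The SF_ConD values were 1.01, 2.10, 1.64, 1.17 and 1.20 FPKM, and the SC_ConD values 1.75, 5.94 and 3.83 FPKM. As for Idi1, SC_ConD 2 and 3 stood above all 10 sleep-fragmented libraries and SC_ConD 1 among them. No 50-base stretch of Dhcr7, Sqle or Mvk occurs in transcripts of other genes.

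Compared per gene length, Fdft1 had the highest mean FPKM and Fdps the lowest in each of the 3 groups, with Hmgcs1 second throughout. This order is of deposited FPKM, and gene copies and overlapping genes leave the levels of Fdps, Fdft1, Idi1 and Lss uncertain. Fdps shares 64.1% of its sequence stretches with other gene models and Fdft1 30.7%, so the top and bottom places are uncertain too. The same holds for each comparison with these genes below. Neighbours in the order of SF_HPD means overlapped across animals in every case. Within each SF_HPD library, though, Mvk lay above Sqle, Idi1 above Dhcr7, Dhcr7 above Lss and Lss above Fdps. Fdft1 and Hmgcs1, Hmgcs1 and Mvk, and Sqle and Idi1 changed places between SF_HPD libraries, so that part of the order is not firm there. In SF_ConD, Dhcr7 did not overlap Lss and Lss did not overlap Fdps, and in SC_ConD, Hmgcs1 did not overlap Sqle and Lss did not overlap Fdps. Across the 13 libraries, Dhcr7 followed the mean z score of the other tested members with a Pearson r of 0.88, Lss with 0.85, Idi1 with 0.79 and Sqle with 0.75. Hmgcs1 (0.55), Mvk (0.51) and Fdft1 (0.30) followed it less closely. These correlations are descriptions over libraries that share tissue content, depth and the FPKM divisor. Of 9882 other genes, those most like the members' mean z score were Sirt5 (r = 0.94), Med9os (0.90), Cyp51 (0.89), Sc5d (0.88) and Svip (0.88). Each had its highest deposited FPKM in SC_ConD 2. Cyp51 and Sc5d encode further enzymes of sterol synthesis, and Sirt5 a mitochondrial deacylase.

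**Figure D2:**
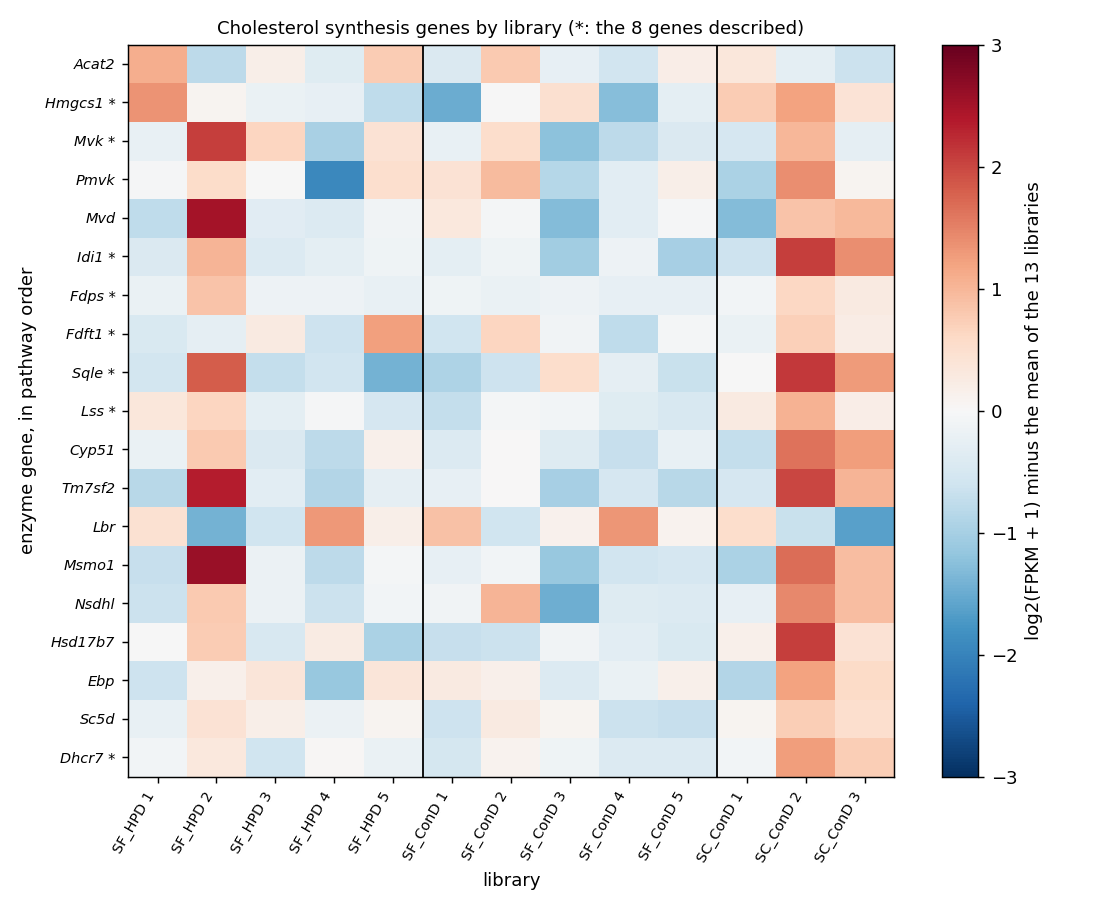
log2(FPKM + 1) of enzymes of cholesterol synthesis in pathway order (rows; the 8 members carry an asterisk), minus each gene's mean over the 13 libraries, with SF_HPD, SF_ConD and SC_ConD libraries from left to right. The mostly red columns are SF_HPD 2, SC_ConD 2 and SC_ConD 3. Msmo1 in SF_HPD 2 (30.2 FPKM) is the darkest cell, and Acat2 and Lbr do not share the pattern. Among the members, Fdft1 in SF_HPD 2 (rank 9 of the 13 libraries) and Mvk in SC_ConD 3 (rank 8) do not either.

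The effect of the high-protein diet under fragmented sleep was read from SF_HPD against SF_ConD. All 7 tested members had log2 fold changes above 0 (51.9% of all genes did; Sqle turned with own totals as divisor and by limma-voom), from 0.10 for Sqle to 0.83 for Mvk, with a median of 0.37, against a median of 0.01 over all 14421 genes. None passed limma's test at an adjusted p under 0.05, and 0% of all genes did. None had an unadjusted p under 0.05 either (1 did without SF_HPD 4), which 273 genes (1.89%) had, and limma-voom on recovered reads also called 0 genes, with 267 at an unadjusted p under 0.05. Fold changes here are of FPKM + 1, which understates those of low genes. Mvk, at 0.83 (SE 0.53, limma adjusted p = 0.999994), was the furthest from 0. Hmgcs1 followed at 0.57 (SE 0.45), then Idi1 at 0.47 (SE 0.47), Lss at 0.37 (SE 0.28), Fdft1 at 0.20 (SE 0.40), Dhcr7 at 0.17 (SE 0.29) and Sqle at 0.10 (SE 0.57). Each member's values overlapped between the groups, as did those of all but 0.458% of genes.

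SF_HPD 2, the library with few adipocyte and many keratin transcripts, carried part of this difference. Without it the members' median was 0.22, Mvk stood at 0.41 and Sqle at -0.43. Its divisor was 0.479 times its own total, and with the own total as divisor its FPKM came to 16.2 for Mvk, 6.10 for Sqle and 3.33 for Idi1. The members' median was then 0.29. In bulk tissue, fewer cells of a type and less RNA per cell cannot be told apart, and what the keratin transcripts contribute was not tested. Without SF_HPD 5 the direction of Fdft1 turned (-0.098), and without SF_ConD 1 that of Sqle did (-0.035).

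The effect of fragmented sleep on chow was read from SF_ConD against SC_ConD. All 7 tested members had log2 fold changes below 0, with a median of -0.92, against -0.03 over all genes, of which 52.6% lay below 0. Again none passed, as did 0% of all genes by limma (smallest adjusted p = 0.716, with 828 genes at an unadjusted p under 0.05) and 0 by limma-voom (625 genes at an unadjusted p under 0.05). An unadjusted p under 0.05 on the lower side was reached by 5 of the 7, against 3.15% of all genes. That count was 0 without SC_ConD 2 and 0 without the lymphoid-rich libraries, 2 without SF_ConD 1, 3 without SF_ConD 4 or SC_ConD 3, and 2 with the replicate number as a block. No overlap on the lower side was found in 1 of the 7, Lss, against 1.92% of all genes. With own totals as divisor the Lss values overlapped too.

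Sqle, Idi1 and Hmgcs1 lay furthest from 0. Sqle differed by -1.52 (SE 0.66, limma adjusted p = 0.861), Idi1 by -1.47 (SE 0.54, limma adjusted p = 0.805) and Hmgcs1 by -1.31 (SE 0.52, limma adjusted p = 0.852). Dhcr7 stood at -0.92 (SE 0.33, limma adjusted p = 0.791) and Lss at -0.83 (SE 0.32, limma adjusted p = 0.846). Those 5 are the members with an unadjusted p under 0.05. Mvk at -0.50 (SE 0.61) and Fdft1 at -0.42 (SE 0.46) were within 1 SE of 0.

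**Figure D3:**
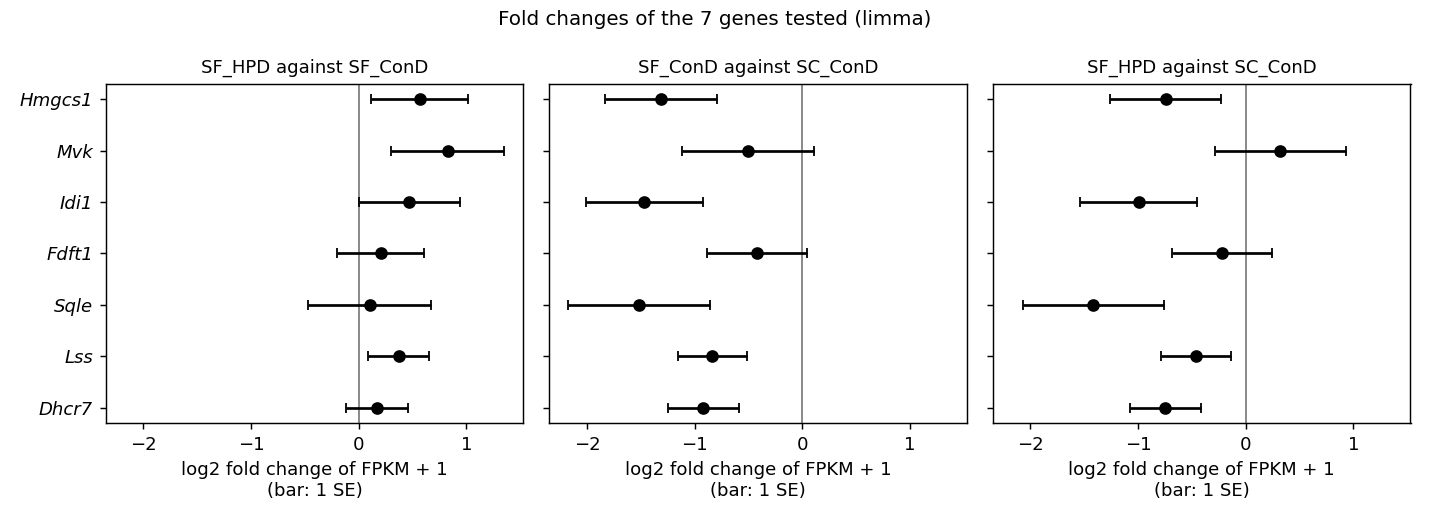
log2 fold change of FPKM + 1 (x axis) of the 7 tested genes in pathway order for SF_HPD against SF_ConD, SF_ConD against SC_ConD and SF_HPD against SC_ConD, with 1 SE to each side. Sqle (-1.52) and Idi1 (-1.47) are furthest below 0 in the middle panel, and none of the 21 values passed the test.

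For most members this comparison rested on SC_ConD 2 and 3, the libraries with liver transcripts. Without both, the median was -0.20, Idi1 (0.091), Fdft1 (0.031) and Mvk (0.077) turned direction, and Sqle and Dhcr7 stood at -0.38 and -0.20. Hmgcs1 stood at -1.28 and Lss at -0.61, closer to their values over all libraries. Without the lymphoid-rich libraries, however, Hmgcs1 and Lss each came to -0.56. SC_ConD 1, whose hepatocyte markers other than Cyp2e1 summed to 138 FPKM, stood above the SF_ConD range for Hmgcs1, Fdps and Lss and within it for the other 5 members. Without SC_ConD 1 limma called 194 genes (1.35%), and of the members Idi1 passed, at -2.25 (SE 0.45, limma adjusted p = 0.0271). Liver expresses these enzymes strongly, and the part of its transcripts in the difference was not tested. SC_ConD 2 and 3 also had divisors of 0.585 and 0.754 times their own totals. With own totals as divisor the median of the members was -0.66, while that of all genes shifted to 0.16, and 2 of the 7 had an unadjusted p under 0.05. After rescaling to TPM the median was -0.83 beside 0.16 for all genes, with 1 of the 7.

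SF_HPD against SC_ConD set both changes against normal sleep on chow. The 3 comparisons share their groups pairwise, so their values are not independent. Of the 7 members, 6 had log2 fold changes below 0 (48.2% of all genes did; 5 after rescaling to TPM, where Fdft1 came to 0.036), and the median was -0.75, against 0.02 over all genes. None passed, as did 0% of all genes by limma (smallest adjusted p = 0.394, with 531 genes at an unadjusted p under 0.05) and 0 by limma-voom (469 genes at an unadjusted p under 0.05). Dhcr7 alone had an unadjusted p under 0.05, at -0.75 (SE 0.33, limma adjusted p = 0.99991), against 2.67% of all genes on that side. With the replicate number as a block none did, and the members' median was -0.47. With single libraries left out the count ran from 0 to 3: it was 3 without SF_HPD 2 or SC_ConD 1, 2 without SF_ConD 3, and 0 without SF_HPD 3, SF_HPD 5, SF_ConD 4, SF_ConD 5, SC_ConD 2 or SC_ConD 3. Sqle was at -1.42, Idi1 at -0.995, Hmgcs1 at -0.75, Lss at -0.46, Fdft1 at -0.22 and Mvk at 0.32. Without SC_ConD 2 and 3 the median was -0.033 and Idi1 stood at 0.56, and without SF_HPD 2 Mvk stood at -0.098. Without SC_ConD 1 limma called 196 genes (1.36%) and no member.

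**Figure D4:**
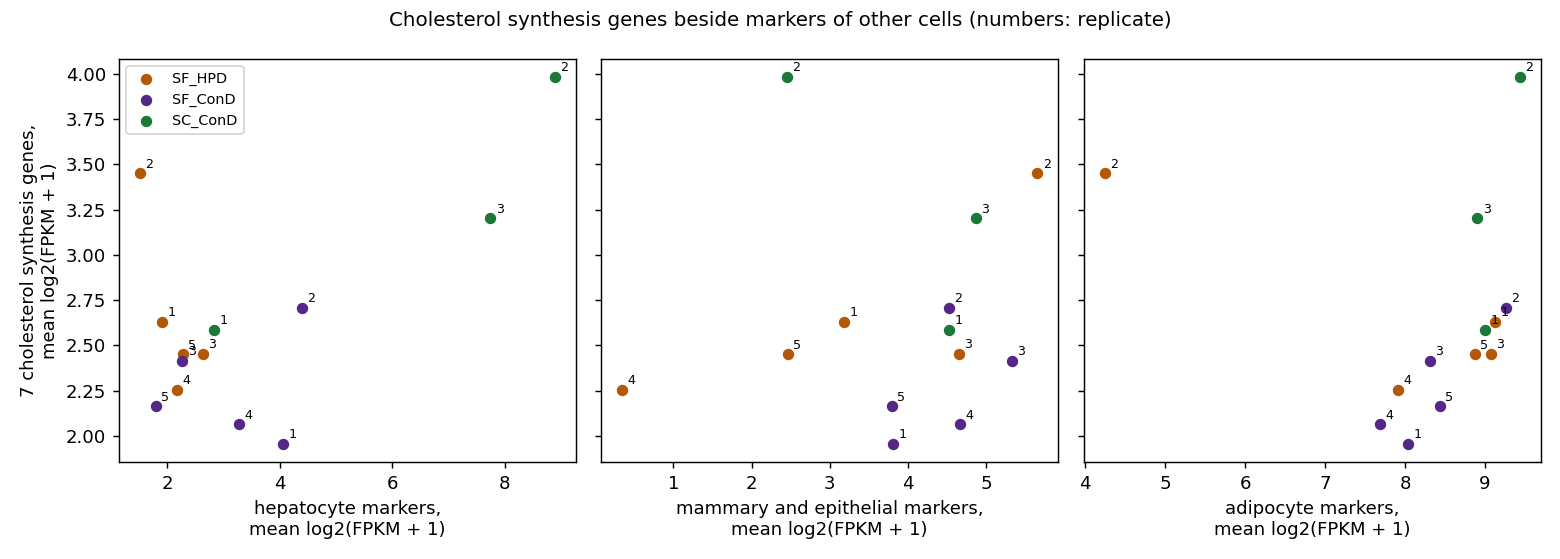
Mean log2(FPKM + 1) of the 7 tested genes (y axis) against that of the hepatocyte, the mammary and epithelial and the adipocyte markers (x axes), with 1 point per library numbered by replicate. The highest libraries are SF_HPD 2 (3.45), SC_ConD 2 (3.98) and SC_ConD 3 (3.20); SF_HPD 2 lies apart on the adipocyte axis and SC_ConD 2 and 3 on the hepatocyte axis.

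The other 13 enzymes of cholesterol synthesis, all tested, had fold changes above 0 for 10 in SF_HPD against SF_ConD (median 0.24), below 0 for 11 in SF_ConD against SC_ConD (median -0.76) and below 0 for 11 in SF_HPD against SC_ConD (median -0.45), the last 2 counts being 10 with own totals as divisor or after rescaling to TPM. None passed, though 2 did in SF_ConD against SC_ConD without SC_ConD 1, as did 1.35% of all genes. That fit left SC_ConD 2 and 3, the libraries with liver transcripts, as the reference. Without SC_ConD 2 and 3 the last median turned to 0.29. By deposited FPKM, SF_HPD 2 was the highest library for 4 of the 13 and SC_ConD 2 for 7. Their divisors were 0.479 and 0.585 times their own totals, which raises their FPKM, and the part of this in the counts was not tested. In SF_HPD against SF_ConD those with the smallest p were Msmo1, the sterol C4 oxidase (0.68, SE 0.63), Sc5d, the lathosterol desaturase (0.37, SE 0.27), and Hsd17b7, a keto-sterol reductase (0.35, SE 0.40). Without SF_HPD 2 the median of the 13 was -0.06.

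Hsd17b7 was at 0.401, 0.459, 1.11, 0.824 and 0.665 FPKM in SF_ConD 1 to 5, against 1.51, 8.59 and 2.05 FPKM in SC_ConD 1 to 3. The groups did not overlap, SC_ConD 2 stood far above the rest, and the log2 fold change was -1.32 (SE 0.46, limma adjusted p = 0.787). In the same comparison Sc5d stood at -0.76 (SE 0.31). Against SC_ConD, SF_HPD mice differed by -0.97 in Hsd17b7 and -0.81 in Cyp51, the lanosterol demethylase.

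Of 14 genes of cholesterol uptake and its handling in the cell, 12 were tested and none passed in any comparison. Their medians were -0.10 in SF_HPD against SF_ConD, 0.03 in SF_ConD against SC_ConD and -0.19 in SF_HPD against SC_ConD. The sign of each was unstable. The first turned to 0.076 without SF_HPD 2 and 0.012 without SF_HPD 5. The second lay below 0 without SF_ConD 3, SF_ConD 5, SC_ConD 2 or SC_ConD 3 (-0.19 to -0.056), with the block (-0.043) and with no filter beyond an FPKM above 0 (-0.18), and was -0.58 without both SC_ConD 2 and 3. The last turned to 0.064 after rescaling to TPM (beside 0.25 over all genes), 0.19 without SF_HPD 2 and 0.29 without SC_ConD 1. The VLDL receptor Vldlr stood at 0.83 (SE 0.46) and the sterol transporter Gramd1a at -0.83 (SE 0.49) in SF_HPD against SF_ConD. Gramd1b, of the same family, stood at 0.86 (SE 0.64) in SF_ConD against SC_ConD. In SF_HPD against SC_ConD, the lysosomal cholesterol carrier Npc2 was at -1.02 (SE 0.77) and the sterol carrier Stard4 at -0.54 (SE 0.42). Scarb1, the HDL receptor, averaged 12.1 ± 7.78 FPKM in SF_HPD, 12.9 ± 2.38 FPKM in SF_ConD and 13.1 ± 6.04 FPKM in SC_ConD (SD, n = 5, 5 and 3), with its lowest value, 2.95 FPKM, in SF_HPD 2.

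The 12 genes that control SREBP, all tested, lay near the median of all genes, at 0.02 in SF_HPD against SF_ConD, -0.0034 in SF_ConD against SC_ConD and 0.12 in SF_HPD against SC_ConD. None passed. With own totals as divisor the first turned to -0.079 and the second shifted to 0.21, beside -0.066 and 0.16 over all genes. The last turned to -0.028 without SC_ConD 2. Srebf2, the gene of SREBP2, averaged 8.44 ± 3.77 FPKM in SF_HPD, 8.01 ± 2.31 FPKM in SF_ConD and 5.67 ± 2.23 FPKM in SC_ConD (SD, n = 5, 5 and 3). By deposited FPKM, Srebf2 was highest in SF_HPD 2, at 13.2 FPKM, but the divisor there was 0.479 times the library's own total. It stood at 5.59 and 3.48 FPKM in SC_ConD 2 and 3, where the members were high. Insig1, whose product holds SREBP back, averaged 32.3 ± 13.5 FPKM in SF_HPD, 44.1 ± 39.5 FPKM in SF_ConD and 47.9 ± 10.2 FPKM in SC_ConD. The smallest p in SF_ConD against SC_ConD were those of the ubiquitin ligase gene Rnf145 (0.82, SE 0.37), Insig2 (-0.56, SE 0.32) and Srebf2 (0.45, SE 0.36). In SF_HPD against SC_ConD they were those of Insig2 (-0.67, SE 0.32), Rnf145 (0.54, SE 0.37) and Srebf1 (0.88, SE 0.68), and in SF_HPD against SF_ConD they included those of the ligase genes March6 (0.50, SE 0.52) and Rnf145 (-0.28, SE 0.32).

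Of 12 genes of cholesterol efflux and storage, 10 were tested, with medians of -0.18 in SF_HPD against SF_ConD, -0.12 in SF_ConD against SC_ConD and -0.60 in SF_HPD against SC_ConD. None passed, though without SC_ConD 1 a single gene of the list did in each comparison with SC_ConD. Of all genes, 1.35% then passed in SF_ConD against SC_ConD and 1.36% in SF_HPD against SC_ConD, with SC_ConD 2 and 3 as the reference. The first median turned to 0.071 without SF_HPD 2. The second turned to 0.095 after rescaling to TPM and 0.12 with own totals as divisor, beside 0.16 over all genes in each. It also turned to 0.021 after quantile normalization, 0.087 without SF_ConD 3 and 0.097 without SC_ConD 2. Without SC_ConD 2 and 3 the last was 0.038. Lcat, which esterifies cholesterol in plasma lipoproteins and is made mostly by liver, was at most at 1.58 FPKM in SF_HPD and 2.60 FPKM in SF_ConD, and at 1.28, 61.7 and 27.4 FPKM in SC_ConD 1 to 3. Its difference was -3.17 (SE 0.83, limma adjusted p = 0.394) in SF_HPD against SC_ConD and -3.01 (SE 0.83, limma adjusted p = 0.716) in SF_ConD against SC_ConD. Cyp27a1, the sterol 27-hydroxylase, stood at -1.09 (SE 0.48) in SF_HPD and -1.30 (SE 0.48) in SF_ConD, each against SC_ConD. The efflux pump gene Abca1 averaged 13.9 ± 6.26 FPKM in SF_ConD and 28.5 ± 3.27 FPKM in SC_ConD (SD, n = 5 and 3), without overlap (-1.09, SE 0.57), and stood at -0.89 (SE 0.57) in SF_HPD against SC_ConD. In SF_HPD against SF_ConD the smallest p were those of Apoe (-0.95, SE 0.89), the LXR gene Nr1h3 (-0.58, SE 0.62) and Ch25h (-0.53, SE 0.65).

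The branch from farnesyl diphosphate to other isoprenoids had 10 genes, all tested, with medians of 0.11 in SF_HPD against SF_ConD, -0.14 in SF_ConD against SC_ConD and -0.044 in SF_HPD against SC_ConD. None passed. After rescaling to TPM the last 2 medians turned to 0.092 and 0.21, beside 0.16 and 0.25 over all genes. With own totals as divisor they turned to 0.12 and 0.093, beside 0.16 and 0.13 over all genes. The last also turned to 0.098 with the block, 0.14 without SF_HPD 4 and 0.069 without SC_ConD 2. Pdss1, which builds the side chain of coenzyme Q, was at 0.628, 0.897, 1.07, 1.38 and 1.61 FPKM in SF_HPD 1 to 5. It was at 1.09, 0.741, 0.381, 0.699 and 0.799 FPKM in SF_ConD 1 to 5 and at 0.349, 0.380 and 0.456 FPKM in SC_ConD 1 to 3. All SF_HPD values lay above all SC_ConD values (0.58, SE 0.24, limma adjusted p = 0.99991). Fntb, a subunit of the farnesyl transferase, stood at 0.62 (SE 0.33) in SF_HPD and 0.67 (SE 0.33) in SF_ConD, each against SC_ConD. The others named by smallest p were Nus1 (0.29, SE 0.30) and Pggt1b (0.29, SE 0.43) in SF_HPD against SF_ConD, Pdss2 (-0.27, SE 0.26) in SF_ConD against SC_ConD and Pggt1b (0.48, SE 0.50) in SF_HPD against SC_ConD.

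**Figure D5:**
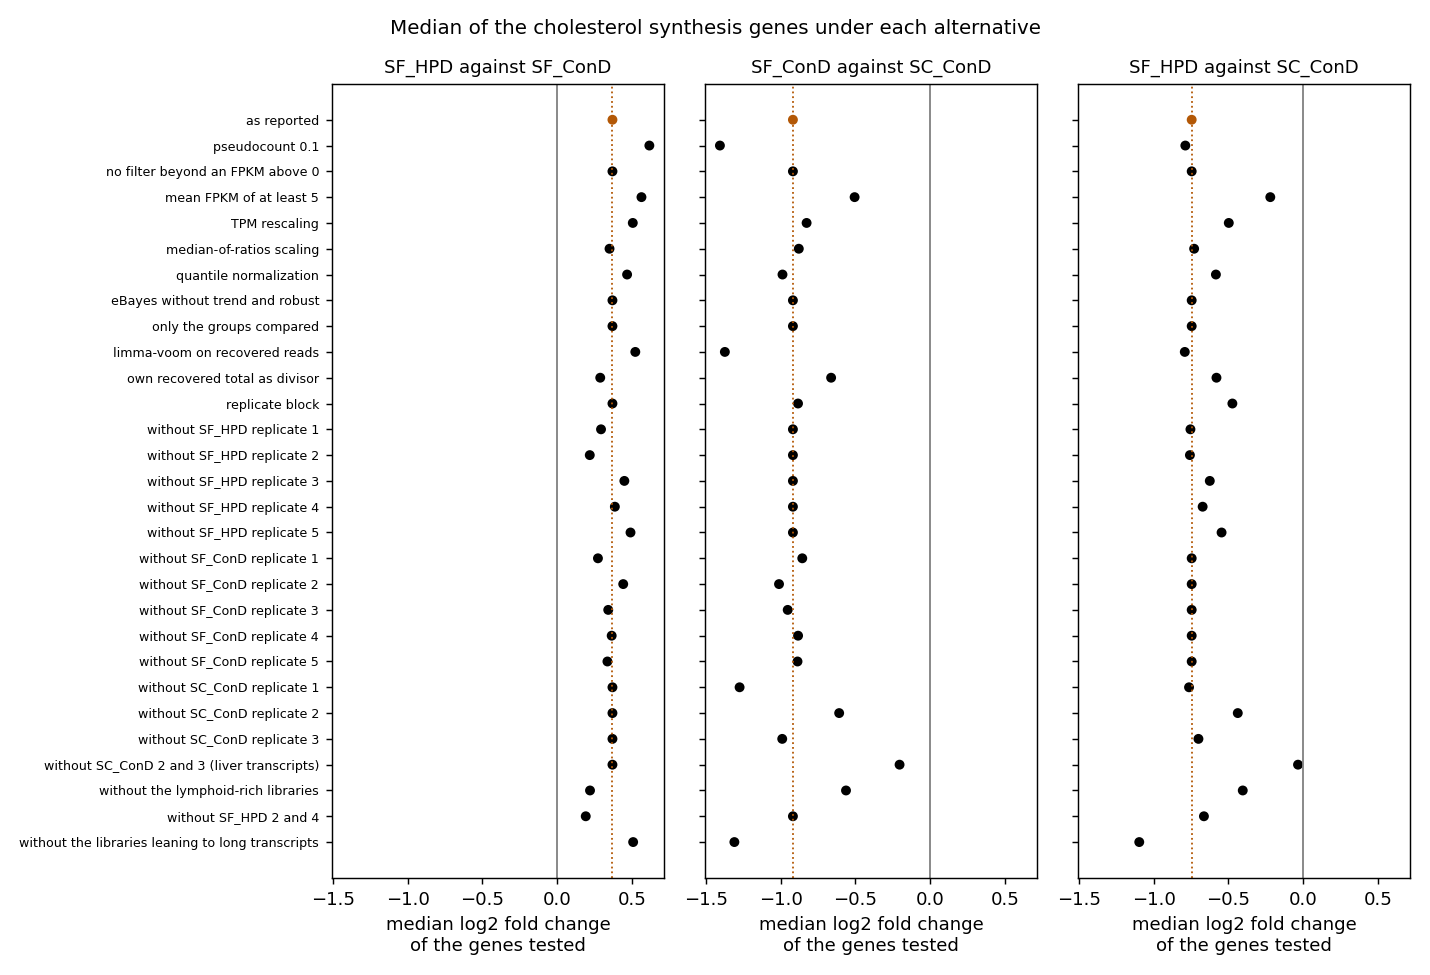
Median log2 fold change of the members tested (x axis) as reported (orange, dotted line) and under 28 alternatives (rows) for the 3 comparisons; the row for a mean FPKM of at least 5 covers 3 members. The median in SF_ConD against SC_ConD moves from -0.92 to -0.20 without SC_ConD 2 and 3.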

How the data were processed

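Total RNA of inguinal fat from 13 mice was sequenced, 1 library per animal. The authors deposited a table of FPKM that also lists each gene's name, position and length. Per the submitters' processing notes, HISAT2 2.0.5, CASAVA, featureCounts 1.5.0-p3 and the build mm8 were used, with no role or order named. The table's coordinates of all 8 members matched GENCODE M21 on GRCm38. The sources used here give neither the strand setting nor the origin of the FPKM divisor. FPKM times gene length, divided by the smallest step of the library, gave whole reads for 100% of values within 0.05. These reads were not the main test.

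Values were tested as log2(FPKM + 1). A limma model (version 3.58.1, R 4.3.3) of the 3 groups was fitted to all 13 libraries, using the trended and robust empirical Bayes setting, two-sided, with Benjamini-Hochberg adjustment over 14421 genes and a threshold of 0.05. The fit was also run on simulated reads, drawn around a mean profile shared by all libraries apart from genes set to change. Those reads lacked the differences in tissue content and divisor seen here, so the run cannot show how the fit performs on these data. The members and all gene lists were chosen with earlier results of these data known. Named besides the members were Cyp51, Srebf2, Insig1, Scarb1 and other preset genes, up to 3 genes of smallest p per list and comparison, the 5 genes most like the members, and Alb, Acta1, Cd79a and Adipoq; some of these are not reported here. March6 was matched by its identifier. Likeness was computed where mean FPKM was 2 or more.

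The labels number the replicates without naming a source of pairing. Same-numbered libraries of SF_HPD and SC_ConD deviated together, with correlations of 0.71, 0.33 and 0.19, the last not the highest for its library. The main fit paired no libraries, and the replicate number entered only as a block in an alternative fit. In SF_HPD against SF_ConD they ran from -0.67 to 0.41 and in SF_ConD against SC_ConD from -0.56 to 0.19. Alternatives changed the pseudocount, filter, scaling, fit, block and libraries. The own total as divisor was chosen after seeing the data.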

Additional observations from a re-analysis of the deposited data

Results flagged for a closer look

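Of 16 sets of values of a member within SF_HPD or SF_ConD, 5 held a library far from the others of its group by Dixon's test on FPKM. The test's rate of about 1 in 20 holds for independent sets of normally distributed values. These sets share libraries and hold FPKM off the log2 scale, so the count cannot be set against that rate. All 5 were high values in SF_HPD. Hmgcs1 stood at 38.2 FPKM in SF_HPD 1, against 8.19 to 15.5 FPKM in the other 4 mice. The other 4 were in SF_HPD 2, the library with 26.1 FPKM of Adipoq. There Sqle stood at 12.7 FPKM, against 0.455 to 1.66 FPKM in the rest of the group. Idi1 was at 6.95 FPKM, against 1.90 to 2.56 FPKM. Fdps was at 1.15 FPKM, against 0.0240 to 0.0757 FPKM, on 42 reads. Mvk was at 33.8 FPKM, against 3.21 to 12.0 FPKM. With own totals as divisor Mvk stood at 16.2 FPKM, against 12.7 FPKM in SF_HPD 3, and Idi1 at 3.33 FPKM, against 2.56 FPKM in SF_HPD 4. Sqle and Fdps in SF_HPD 2 were then at 6.10 and 0.553 FPKM, against at most 2.04 and 0.0802 FPKM in the rest of the group. Hmgcs1 in SF_HPD 1 was at 46.8 FPKM, against at most 14.0 FPKM. The cause of these 5 high values was not tested.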

How the results depend on the processing

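With the replicate number as a block 0 genes were called in each comparison, and the members' medians were 0.37 in SF_HPD against SF_ConD, -0.88 in SF_ConD against SC_ConD and -0.47 in SF_HPD against SC_ConD, so the block changed no call at the adjusted threshold. At an unadjusted p under 0.05 the block gave 1, 2 and 0 members in these comparisons, against 0, 5 and 1 without it. With single libraries left out, limma called 0 to 1 genes in SF_HPD against SF_ConD, 0 to 194 in SF_ConD against SC_ConD and 0 to 196 in SF_HPD against SC_ConD. The highest counts came without SF_HPD 5 (1) and, in the last 2 comparisons, without SC_ConD 1. Members called ranged from 0 to 1 in SF_ConD against SC_ConD, where Idi1 ranged from -2.25 to -0.91. Without the 4 libraries of lowest FPKM sum (SF_HPD 1 and 4, SF_ConD 3 and SC_ConD 1), 162 genes were called in SF_ConD against SC_ConD and 172 in SF_HPD against SC_ConD. Without SC_ConD 2 and 3 the members' medians were -0.20 and -0.033 in these comparisons, with the spread of the other groups assumed for the lone SC_ConD library.

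For single members under the alternatives, 20 values turned direction, 555 kept their direction and side of the threshold and 1 newly passed (Idi1, above). Many of the 555 could not turn. Leaving out a library outside a comparison, or changing only how the spread is estimated, leaves the fold changes as they were. With no member past the threshold at the start, the 555 are no measure of how firm the values are. In SF_HPD against SF_ConD, Sqle came to -0.00696 with a pseudocount of 0.1, -0.21 by limma-voom, -0.018 with own totals as divisor and -0.51 without SF_HPD 2 and 4, and with single libraries left out it ran from -0.43 to 0.38. There Fdft1 ran from -0.098 to 0.41 with single libraries left out and came to -0.43 without the lymphoid-rich libraries, while Dhcr7 came to -0.10 without those and -0.013 without SF_HPD 2 and 4. In SF_ConD against SC_ConD, Idi1 (0.091), Fdft1 (0.031) and Mvk (0.077) turned without SC_ConD 2 and 3, and Fdft1 (0.029) without the lymphoid-rich libraries. In SF_HPD against SC_ConD, Fdft1 came to 0.036 after TPM rescaling, 0.23 without SC_ConD 2 and 3 and 0.10 without SF_HPD 2 and 4, and ran from -0.52 to 0.014 with single libraries left out. Idi1 came to 0.56 without SC_ConD 2 and 3, and Mvk ran from -0.098 to 0.79 with single libraries left out. The causes were not tested. All-gene medians shifted to 0.25 (TPM) and 0.13 (own totals) in SF_HPD against SC_ConD.

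With 3 to 5 mice a group, the members' standard errors were 0.28 to 0.66 on the log2 scale. Depth was 41 to 373 reads a library for Lss and 0 to 42 for Fdps. Gene copies and overlapping genes leave Fdps, Fdft1, Idi1 and Lss uncertain.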

Other observations

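The sterol acyltransferase gene Soat2 did not pass the low-value filter. It was at most at 0.365 FPKM in SF_HPD and 0.299 FPKM in SF_ConD, and at 0.0536, 5.94 and 0.835 FPKM in SC_ConD 1 to 3. SC_ConD 1 lay within the range of the sleep-fragmented libraries, and SC_ConD 2 and 3 are the libraries with liver transcripts, whose part in these values was not tested. It was picked after its values were seen.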
